A study of Rattus norvegicus with 70 samples.

Results

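The genes described here are 42 genes that mark T cells, natural killer (NK) cells and B cells, given as a list of symbols with no threshold on their values, and measured by messenger RNA sequencing in 6 tissues of male Wistar-Kyoto (WKY) rats. WKY is an inbred rat strain, and the animals breathed either clean air or 0.8 ppm ozone, an oxidant gas, for 4 h. Of the 42 genes, 40 were among the 19441 gene entries of each table, while Cd5 and Il7r were not analysed here. Most of the members that could be tested were in lung, which had 6 air and 6 ozone libraries. Liver and hypothalamus also had 6 and 6, adrenal gland 5 and 6, adipose tissue 5 and 5, and skeletal muscle 6 and 5, in the order air and ozone. In lung, 37 of the 42 genes had a mean of at least 10 normalised reads and were tested.

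T cells and B cells recognise antigen through receptors that are assembled anew in each cell. T cells carry a receptor coupled to the CD3 chains and to the co-receptors CD4 or CD8, cytotoxic T cells and NK cells kill targets with perforin and granzymes, and B cells carry membrane immunoglobulin coupled to CD79 and later secrete antibody as plasma cells. The lung holds lymphocytes in its tissue, in its airway-associated lymphoid aggregates and in the blood of its large capillary bed. In bulk tissue RNA, fewer cells of a type and less RNA per cell cannot be told apart.

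Recovered read totals ran from 10714447 to 13730483 per lung library and from 8854272 to 18848151 over all 68 libraries. Values are the authors' normalised read counts. They are not divided by gene length, so levels are compared within a gene and not between genes. Within a tissue each library has its own number, 12 or lower for air and 13 or higher for ozone. Whether a number stands for 1 rat is not stated in the labels, so the tests measure spread among libraries, which may be technical. An order of handling, if the numbers follow one, cannot be told apart from ozone.

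In lung, genes of all 3 listed groups (T-cell, cytotoxic and NK, B-cell and antibody) fell after ozone. Of the 37 tested, 16 fell and 0 rose at an adjusted p under 0.05, against 8.18% of all 14828 tested lung genes that fell and 9.51% that rose (limma, Benjamini-Hochberg over all tested genes). An unadjusted p under 0.05 with a negative change was reached by 27 of 37, against 15.1% of all tested lung genes. The log2 change was below 0 for 36 of the 37, the exception being Lat, and its median was -0.66 against 0.00 over all tested lung genes. By group, 3 of 15 T-cell genes, 6 of 9 cytotoxic and NK genes and 7 of 13 B-cell and antibody genes fell. The listed T-cell genes that fell were Cd8a, Lck and Il2rb. NK cells share Il2rb, and whether the Cd8a and Lck reads came from T cells or NK cells was not tested. Of the 4 chains of the T-cell receptor complex 0 passed with limma. Whether T cells changed apart from NK cells was not tested. For 8 genes every ozone library lay below every air library: Cd8a, Lck, Gzma, Gzmb, Prf1, Cd79b, Bank1 and Pou2af1. The same held for 4.0% of all tested lung genes.

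**Figure D1:**
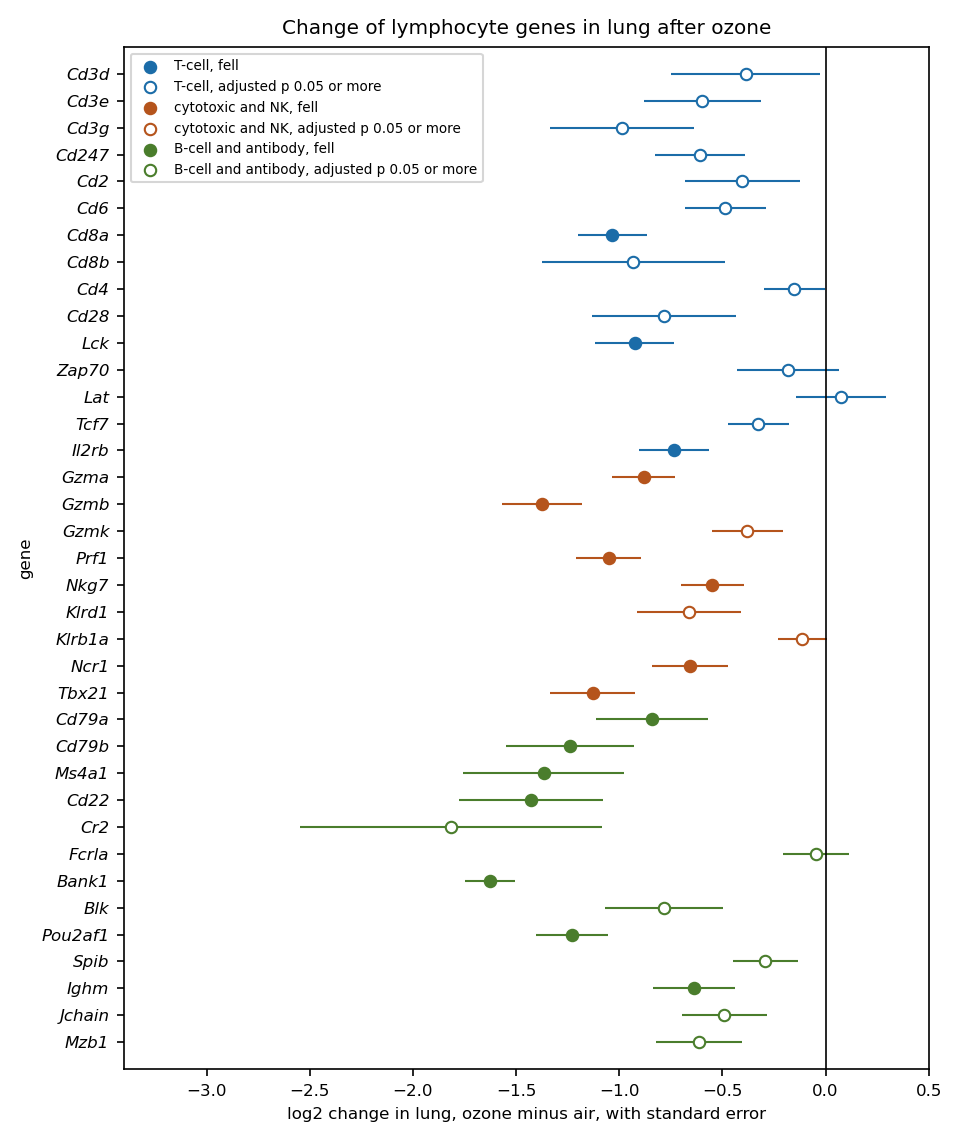
Each point is the log2 change of 1 gene in lung, ozone minus air, from 6 air and 6 ozone libraries, on the log2(value + 1) scale, and bars are standard errors. Filled points are the 16 genes that fell, open points did not pass an adjusted p of 0.05, and 36 of the 37 points lie below 0.

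Of the 4 chains of the T-cell receptor complex 0 passed with limma or edgeR, with 2 at an unadjusted p under 0.05, and all 4 had a negative change. Cd3e, the CD3 epsilon chain, ranged from 54.3 to 156 normalised reads in the air libraries (median 65.6) and from 36.3 to 74.8 in the ozone libraries (median 56.8). The groups overlapped, and air 1 and air 2, at 156 and 148, stood far above the other air libraries. Its log2 change was -0.60 ± 0.28 (SE, adjusted p = 0.166). Cd247, the zeta chain that carries the signal inward, ranged from 79.7 to 176 in air (median 130) and from 59.7 to 141 in ozone (median 74.3). Ozone 19 and ozone 20 reached into the air range, and the change was -0.61 ± 0.22 (adjusted p = 0.0695). Cd3g and Cd3d were measured at low depth, with 4 to 36 and 3 to 17 reads per library. Their changes were -0.99 ± 0.35 (adjusted p = 0.0634) and -0.39 ± 0.36 (adjusted p = 0.504). The Cd3g call depended on the tool, since DESeq2 on the recovered reads gave an adjusted p of 0.0371.

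Cd8a encodes a chain of the CD8 co-receptor, which restricts T cells to class I antigen. It ranged from 96.9 to 127 normalised reads in air (median 109) and from 35.8 to 76.6 in ozone (median 52.1). All 6 ozone libraries were below the lowest air library, and Cd8a fell by 1.03 on the log2 scale (SE 0.17, adjusted p = 0.000615). Its partner chain Cd8b, with 2 to 29 reads per library, had a change of -0.93 ± 0.44 that did not pass (adjusted p = 0.166). Cd4, which helper T cells and, in rats, also macrophages carry, ranged from 174 to 304 in air (median 248) and from 167 to 248 in ozone (median 223). The groups overlapped, and the change was -0.15 ± 0.15 (adjusted p = 0.527). The Cd8a and Cd4 changes were not tested against each other, and which cells the Cd8a reads came from was not tested.

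The other surface genes of T cells did not pass. Cd6, a scavenger-receptor co-receptor of T cells, had a change of -0.48 ± 0.20 (adjusted p = 0.105), and Cd2, an adhesion receptor, -0.40 ± 0.28 (adjusted p = 0.347). Cd28, the main costimulatory receptor, ranged from 10.8 to 43.5 in air (median 22.4) and from 5.97 to 19.6 in ozone (median 13.2). In 3 air libraries it stood above all ozone libraries, and the others overlapped them, and the change was -0.78 ± 0.35 (adjusted p = 0.141).

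Lck, the kinase that phosphorylates the CD3 chains, ranged from 122 to 179 normalised reads in air (median 132) and from 41.8 to 112 in ozone (median 73.6). No ozone library reached the air range, and Lck fell by 0.93 (SE 0.19, adjusted p = 0.00416). Zap70, the kinase that then binds those chains, ranged from 31.4 to 62.4 in air (median 41.5) and from 23.9 to 71.0 in ozone (median 37.6). The ranges overlapped, with ozone 19 the highest of all 12 libraries, and the change was -0.18 ± 0.25 (adjusted p = 0.666). Lat, the adaptor downstream of both kinases, was the gene with a positive value, 0.07 ± 0.22 (adjusted p = 0.853). Its sign turned negative when air 9 or ozone 20 was left out.

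Il2rb, the receptor chain for interleukin-2 and interleukin-15 shared by NK cells and T cells, ranged from 583 to 1017 in air (median 852) and from 384 to 720 in ozone (median 456). Of the ozone libraries 5 were below the lowest air library and ozone 19 was above it. Il2rb fell by 0.73 (SE 0.17, adjusted p = 0.00794). Tcf7, a transcription factor of naive and memory T cells, ranged from 71.1 to 100.1 in air (median 87.9) and from 48.9 to 86.0 in ozone (median 66.9). Of its ozone libraries 4 were below the air range, and the change of -0.33 ± 0.15 did not pass (adjusted p = 0.145).

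Of the 5 genes of the cytotoxic granule 4 fell. Gzmb, granzyme B, which enters target cells and cleaves caspases, ranged from 116 to 204 normalised reads in air (median 188) and from 46.9 to 106 in ozone (median 62.1). The groups did not overlap, although air 10, at 116, was well below the other air libraries, which held at least 175. Gzmb fell by 1.37 (SE 0.19, adjusted p = 0.000227), which is 2.59-fold lower. Prf1, perforin, which opens the target membrane, ranged from 610 to 904 in air (median 698) and from 246 to 512 in ozone (median 350.1). Every ozone library was below every air library, and Prf1 fell by 1.05 (SE 0.16, adjusted p = 0.000334).

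Gzma, granzyme A, ranged from 96.4 to 147 in air (median 116) and from 48.9 to 91.6 in ozone (median 61.6). The groups again did not overlap, and Gzma fell by 0.88 (SE 0.15, adjusted p = 0.00109). Nkg7, a granule membrane protein, ranged from 163 to 223 in air (median 191) and from 103 to 201 in ozone (median 123). Below the air range were 5 ozone libraries, with ozone 19 inside it, and Nkg7 fell by 0.55 (SE 0.15, adjusted p = 0.0222). Gzmk, granzyme K, was the member that did not pass, at -0.38 ± 0.17 (adjusted p = 0.143). Its air range of 204 to 359 and its ozone range of 137 to 265 overlapped broadly. Gzma and Gzmk both lie on chromosome 2. Rat granzyme B and the Klrb1 receptors belong to families of near-identical copies, and how reads were counted is not stated in the labels, so the share of reads of Gzmb and Klrb1a that belongs to their copies is uncertain.

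Among NK receptors and factors, 2 of 4 tested genes fell. Tbx21 encodes T-bet, the factor that drives granzyme and interferon programmes in NK and type 1 T cells. It ranged from 79.4 to 119 in air (median 98.8) and from 28.2 to 79.5 in ozone (median 42.4). Only ozone 19 touched the air range, level with air 2, and Tbx21 fell by 1.13 (SE 0.21, adjusted p = 0.00167). Ncr1, the activating NK receptor NKp46, ranged from 68.7 to 117 in air (median 103) and from 50.6 to 101 in ozone (median 56.9). Here too ozone 19 was the one library in the air range, and Ncr1 fell by 0.66 (SE 0.19, adjusted p = 0.0242). Klrd1 (CD94), which pairs with other NK receptors, had a change of -0.66 ± 0.25 (adjusted p = 0.0835, and 0.0295 with DESeq2). Klrb1a (NKR-P1A) had a change of -0.11 ± 0.12 (adjusted p = 0.566). Eomes, the partner factor of T-bet, was under the minimum for testing, with 7.03 to 10.2 normalised reads in air and 3.58 to 9.08 in ozone.

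**Figure D2:**
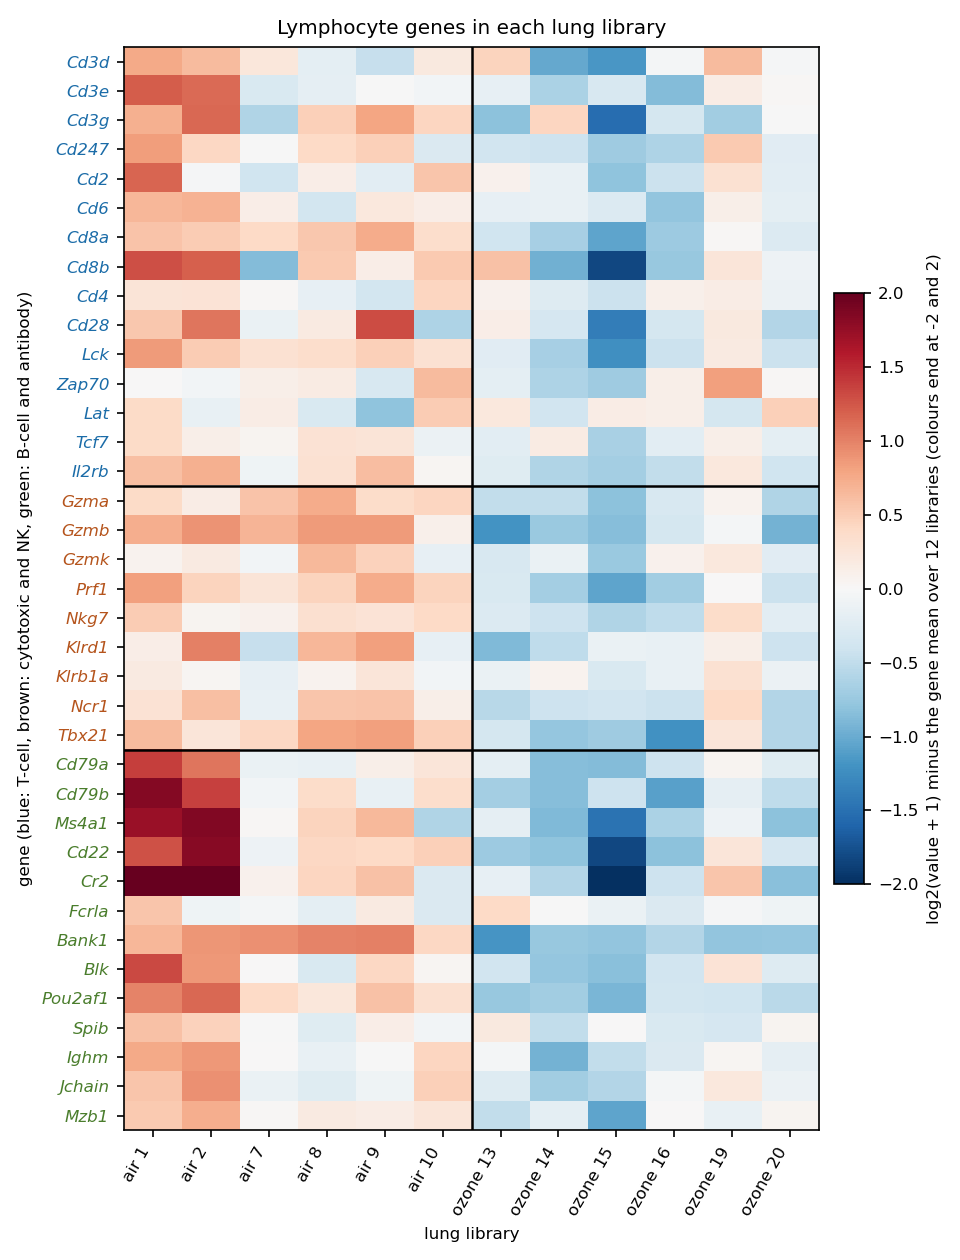
Each row is 1 of the 37 tested genes and each column 1 of the 12 lung libraries, and the colour is log2(value + 1) minus the gene's mean over the libraries. Red cells lie mostly left of the vertical line (air) and blue cells right of it, air 1 and air 2 are darkest red for the B-cell genes, and ozone 15 and ozone 19 are the lowest and highest ozone columns.

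The 3 lowest log2 changes of the set were those of the B-cell genes Cr2, Bank1 and Cd22. Bank1, a scaffold of B-cell receptor signalling, ranged from 657 to 987 normalised reads in air (median 922) and from 217 to 327 in ozone (median 287). The highest ozone library held less than the lowest air library, and Bank1 fell by 1.63 (SE 0.12, adjusted p = 1.12e-06), which is 3.09-fold lower. Unlike the genes of the B-cell receptor, Bank1 was not highest in air 1 and air 2, whose values were 781 and 912. Blk, a kinase of the same pathway, ranged from 16.0 to 51.5 in air (median 23.6) and from 10.7 to 24.3 in ozone (median 15.1). The groups overlapped, and its change of -0.78 ± 0.29 passed with DESeq2 (adjusted p = 0.0484) but not with limma (adjusted p = 0.0743).

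Cd79a and Cd79b, the signalling pair of the B-cell receptor, both fell. Cd79b ranged from 80.5 to 320 in air (median 115) and from 41.4 to 78.5 in ozone (median 58.9). Air 1 and air 2, at 320 and 232, were far above the other 4 air libraries, which lay between 80.5 and 116 and still above all ozone libraries. Cd79b fell by 1.24 (SE 0.31, adjusted p = 0.0127). Cd79a ranged from 66.8 to 196 in air (median 84.8) and from 40.6 to 77.6 in ozone (median 59.0). Its groups overlapped, with the same air libraries highest, and it fell by 0.84 (SE 0.27, adjusted p = 0.0444).

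Of the surface genes, Ms4a1 (CD20) ranged from 22.6 to 130 in air (median 51.8) and from 11.9 to 32.7 in ozone (median 20.8), and it fell by 1.37 (SE 0.39, adjusted p = 0.026). Air 10 was the one air library inside the ozone range. Cd22, an inhibitory co-receptor, ranged from 45.5 to 175 in air (median 67.4) and from 13.1 to 58.0 in ozone (median 28.3), and it fell by 1.43 (SE 0.35, adjusted p = 0.0113). Ozone 19 was the one ozone library inside its air range. Cr2, complement receptor 2 of mature B cells, had the lowest value of the set, -1.82 ± 0.73, but did not pass with limma (adjusted p = 0.109), and edgeR and DESeq2 on the recovered reads gave adjusted p of 0.0495 and 0.0401. It ranged from 59.2 to 459 in air and from 3.58 to 108 in ozone, the highest coefficient of variation of the 37 tested members in both groups (87.3% and 63.7%). Fcrla, an Fc receptor-like protein inside B cells, had a change of -0.05 ± 0.16 (adjusted p = 0.879). Vpreb3, a pre-B-cell protein, was under the minimum, with at most 9.04 normalised reads in air and 5.04 in ozone.

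Among the transcription factors, Pou2af1, the B-cell coactivator of octamer-binding factors, ranged from 89.95 to 172 in air (median 109) and from 40.6 to 59.5 in ozone (median 49.8). The groups did not overlap, and Pou2af1 fell by 1.23 (SE 0.17, adjusted p = 0.000224). Spib, an ETS factor of B cells, had a change of -0.29 ± 0.16 (adjusted p = 0.221), with overlapping ranges of 298 to 528 and 250 to 401. Pax5, which holds B-cell identity, was under the minimum, with 3.70 to 23.1 normalised reads in air and 0.92 to 6.54 in ozone.

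Ighm and Jchain had the highest read counts of the members in lung, with no correction for gene length. Ighm, the IgM heavy chain, ranged from 3273 to 6587 in air (median 4276) and from 1885 to 3726 in ozone (median 3074). In 4 ozone libraries it was below the air range, and Ighm fell by 0.64 (SE 0.20, adjusted p = 0.0402). Jchain, which joins IgM and IgA units for secretion, ranged from 1617 to 3630 in air (median 2238) and from 1192 to 2225 in ozone (median 1690). The groups overlapped, and its change was -0.49 ± 0.21 (adjusted p = 0.12). Mzb1, a chaperone of antibody-secreting cells, had a change of -0.61 ± 0.21 (adjusted p = 0.0567), with 5 ozone libraries below the air range of 28.8 to 47.2.

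Some libraries stood apart across the members. Air 1 and air 2 ranked highest or next to highest in air for 12 and 11 of the 13 tested B-cell and antibody genes. Ozone 19 was the highest ozone library for 28 of 37 genes, among them all 9 cytotoxic and NK genes, and ozone 15 the lowest for 24 of 37. Without air 1 and air 2 together, 9 of the 37 fell: Cd8a, Lck, Gzma, Gzmb, Prf1, Tbx21, Cd79b, Pou2af1 and Bank1. All 9 were among the 16, and the change stayed negative for 35 of 37. In that fit Cd79a, Ms4a1, Cd22 and Ighm had changes of -0.44, -0.81, -1.01 and -0.39 with adjusted p of 0.182, 0.116, 0.0585 and 0.19, and Il2rb, Nkg7 and Ncr1 had adjusted p of 0.0536, 0.0623 and 0.0931. Leaving out 1 library at a time gave 12 to 18 calls, and 11 genes passed in every one of the 12 fits: the same 9 with Cd22 and Il2rb.

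All 40 genes together took 873 to 1398 CPM, counts per 1000000 recovered reads of a library, in the air libraries (median 985) and 475 to 829 in the ozone libraries (median 654), with no overlap. Most of this sum too is Ighm and Jchain, which held means of 388 and 197 CPM in air. The 10 cytotoxic and NK genes took 137 to 177 CPM in air and 65.1 to 127 in ozone, again with no overlap. The T-cell sums of 128 to 196 in air and 74.3 to 139 in ozone overlapped through ozone 19. The B-cell and antibody sums of 561 to 1064 and 307 to 564, most of which is Ighm and Jchain, overlapped through the same library.

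**Figure D3:**
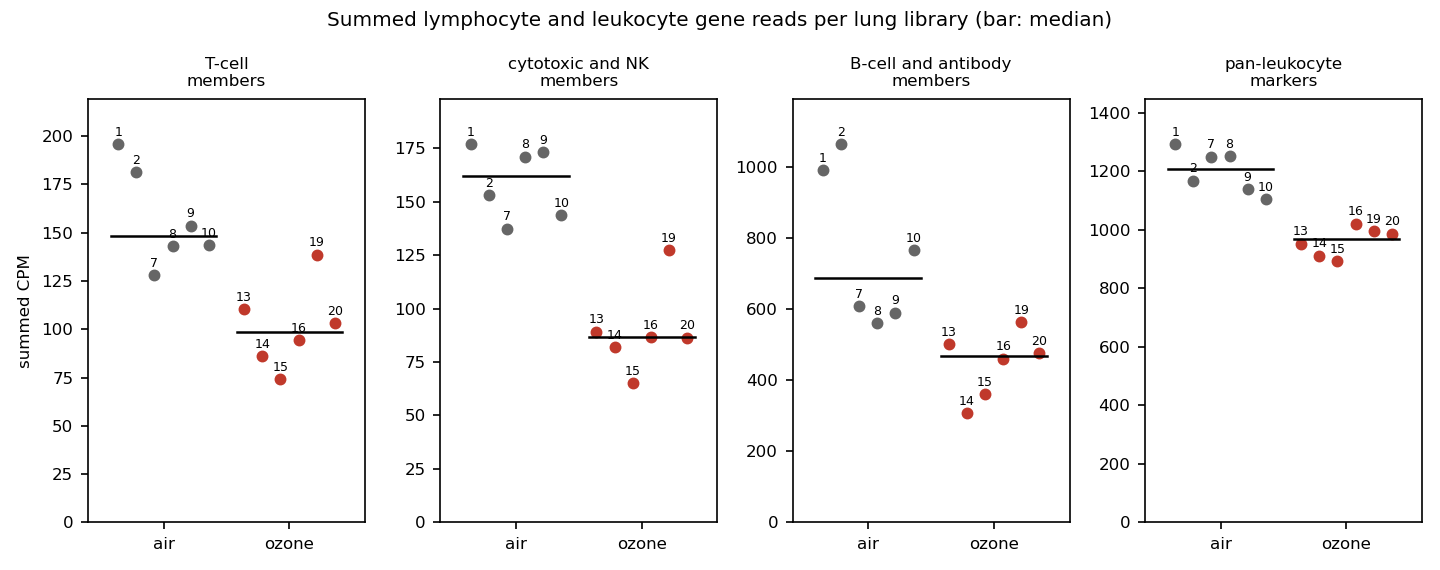
Each numbered point is 1 lung library, and its height is the summed CPM (counts per 1000000 recovered reads) of a gene group, with the median as a bar. Ozone libraries lie below air libraries for the cytotoxic and NK genes and for the pan-leukocyte markers, while ozone 19 reaches into the air range for the T-cell and B-cell genes.

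Further genes of the same lineages were also read. Of 34 tested further T-cell genes 14 fell and 0 rose, with a median log2 change of -0.46. Those with the lowest p were Gimap7 (-0.85, adjusted p = 0.000162), the adaptor Fyb (-0.67, adjusted p = 0.00033) and the Ras activator Rasgrp1 (-1.15, adjusted p = 0.0014). Of 15 further NK and cytotoxic genes 5 fell and 0 rose (median -0.50): Klrb1c, S1pr5, Klrk1, Ctsw and Gzmm. Of 27 further B-cell and plasma cell genes 8 fell, led by Cd37 (-0.86, adjusted p = 0.000277), Cd180 (-0.98, adjusted p = 0.000678) and Pik3ap1 (-0.59, adjusted p = 0.00101), and Bcl6, the germinal-centre repressor, rose (0.64, adjusted p = 0.0181).

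Genes that move lymphocytes were in part lower. Of 17 trafficking receptors and adhesion molecules, 6 fell, and those with the lowest p were the integrin gene Itgal (-0.48, adjusted p = 0.00031) and the chemokine receptor genes Cx3cr1 (-1.38, adjusted p = 0.000377) and Cxcr4 (-0.74, adjusted p = 0.00218). S1pr1, the sphingosine-phosphate receptor of lymphocytes that endothelium also carries, rose by 0.57 (adjusted p = 0.0118). Of 12 lymphoid chemokines and vessel adhesion genes, Cxcl12 fell by 0.46 (adjusted p = 0.00271), and Cxcl10 (0.73, adjusted p = 0.0409) and the endothelial and platelet P-selectin gene Selp (2.42, adjusted p = 0.000318) rose. Of 4 survival cytokine genes 0 passed with limma, and Tnfsf13b (BAFF) was the nearest, at 0.38 (adjusted p = 0.109), the 1 gene of the 4 with an unadjusted p under 0.05. The counts of these lists stand beside the same 8.18% and 9.51% of all lung genes.

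Markers of other cells were measured in the same libraries, and their counts stand beside 8.18% of all lung genes that fell and 9.51% that rose. Of 7 pan-leukocyte markers, Ptprc (CD45) fell by 0.74 (adjusted p = 0.000706) and Cd53 fell by 0.55 (adjusted p = 0.0118). The summed pan-leukocyte reads were 1106 to 1293 CPM in air and 894 to 1022 in ozone, without overlap. Of 9 neutrophil markers 5 fell (S100a8, S100a9, Csf3r, Mmp9 and Ncf1) and Lcn2 rose, and their summed level was 265 to 359 CPM in air and 361 to 481 in ozone. Lcn2, which epithelial cells also make, held 128 to 237 CPM of that sum in air and 272 to 400.4 in ozone, and without it the neutrophil sum was 116 to 142 in air and 80.7 to 90.2 in ozone. Of 9 macrophage and monocyte markers, Adgre1 and Csf1r fell and Cd14, Ctss, Cd163 and Mrc1 rose, with sums of 10130 to 16390 and 14220 to 18040. Of 5 endothelial markers, Kdr and Emcn fell, with sums of 3087 to 4175 and 2610 to 3246. Of 6 epithelial markers, Sftpb, Hopx and Epcam rose, and 0 of 3 tested erythroid markers passed with limma, with 2 at an unadjusted p under 0.05 (Hbb 0.43, adjusted p = 0.058, and Alas2 0.52, adjusted p = 0.0603). The summed epithelial reads were 8451 to 12790 CPM in air and 10880 to 13920 in ozone, and the summed erythroid reads 430.2 to 876 and 639 to 839. The part of blood content and of these other cells in the lymphocyte result was not tested.

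Promoter sequences were at hand for 29 of the 42 genes, with 2 start sites for Lck. The 4 promoters shown are of members whose air and ozone groups did not overlap in lung and that hold the Ikaros core, the letters TGGGAA on either strand. Lck meets the same rule, but with 2 starts it is not shown. Ikaros is a zinc-finger factor of lymphocyte development. Each sequence is from RefSeq on build GRCr8, 250 bases before to 50 after the gene start, 5′ to 3′ on the gene's strand, with the core or its reverse complement in capitals. The count tables were made on rn6, so these coordinates are not those of the counts.
Cd8a (chr4:104923866-104924165, + strand): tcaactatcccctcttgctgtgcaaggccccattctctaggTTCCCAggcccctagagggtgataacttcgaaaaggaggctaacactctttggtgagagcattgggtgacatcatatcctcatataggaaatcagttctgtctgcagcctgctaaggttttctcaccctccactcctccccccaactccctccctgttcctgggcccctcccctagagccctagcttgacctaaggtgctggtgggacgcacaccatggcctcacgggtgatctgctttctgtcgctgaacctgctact
Gzmb (chr15:34462420-34462719, - strand): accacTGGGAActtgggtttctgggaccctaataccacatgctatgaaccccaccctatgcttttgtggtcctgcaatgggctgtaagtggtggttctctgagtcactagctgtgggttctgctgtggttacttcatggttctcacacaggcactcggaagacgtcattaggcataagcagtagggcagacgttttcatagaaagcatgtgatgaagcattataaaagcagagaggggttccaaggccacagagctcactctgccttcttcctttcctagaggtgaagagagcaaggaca
Prf1 (chr20:29788790-29789089, + strand): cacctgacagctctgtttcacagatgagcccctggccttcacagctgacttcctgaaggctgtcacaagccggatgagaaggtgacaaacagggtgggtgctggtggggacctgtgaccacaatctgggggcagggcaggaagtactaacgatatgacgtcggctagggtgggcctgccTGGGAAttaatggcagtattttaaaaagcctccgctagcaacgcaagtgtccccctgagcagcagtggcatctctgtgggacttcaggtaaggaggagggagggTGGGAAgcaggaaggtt
Bank1 (chr2:227473666-227473965, - strand): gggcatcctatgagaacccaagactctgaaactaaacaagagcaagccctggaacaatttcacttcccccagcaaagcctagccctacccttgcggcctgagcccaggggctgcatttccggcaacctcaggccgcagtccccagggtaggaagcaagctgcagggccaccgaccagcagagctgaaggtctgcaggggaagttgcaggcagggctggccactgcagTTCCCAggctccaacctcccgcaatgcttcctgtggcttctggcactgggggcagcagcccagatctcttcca

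The core occurred in 10 of the 30 member promoters (33.3%) and in 25.7% of all 33469 rat promoters of this length. It was found for 5 of the 10 genes that fell and had a promoter: Cd8a, Lck (with 2 promoters), Gzmb, Prf1 and Bank1. It was also found for Cd3e, Zap70, Lat and Klrb1a, which did not pass in lung. Whether the core goes with the fall was not tested. The octamer ATGCAAAT, searched on both strands, was in 1 member promoter (Vpreb3) and in 1.78% of all promoters. The ETS purine box GAGGAAGT was in 1 (Cd5) against 2.42% of all. The glucocorticoid receptor core AGAACA was in 3 (Cd247, Gzmk and Vpreb3) against 20.7% of all, none of them a gene that fell. These matches describe letters only. Cd6, Cd8b, Cd4, Il2rb, Klrd1, Ncr1, Cd79b, Ms4a1, Blk, Pax5, Pou2af1, Ighm and Mzb1 have no entry in the promoter table used here.

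Lung was also where most of these genes were read most. In the air libraries, in CPM, 37 of the 40 genes had their highest mean in lung, and for 28 of those the lung libraries did not overlap the next tissue. Of all 19441 gene entries, 24.2% had their highest mean in lung, and 9.16% did so without overlap. Bank1 held 72.2 ± 9.88 CPM in lung (SD, n = 6), 31.3 times the mean of the next tissue, liver. Gzmb held 14.7 ± 2.49, 15.1 times that of adipose tissue, and Spib and Cr2 were at 47.0 and 47.1 times the liver mean. The exceptions were Cd4, at 76.3 ± 25.3 CPM in adipose tissue (n = 5) against 20.0 ± 4.31 in lung without overlap, Cd22, whose adipose and lung libraries overlapped, and Vpreb3, whose adrenal and lung libraries overlapped. Zap70 in lung and adrenal gland (3.59 and 3.25 CPM) also overlapped. The tables were normalised and the RNA extracted separately by tissue, so these orders carry that difference too.

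**Figure D4:**
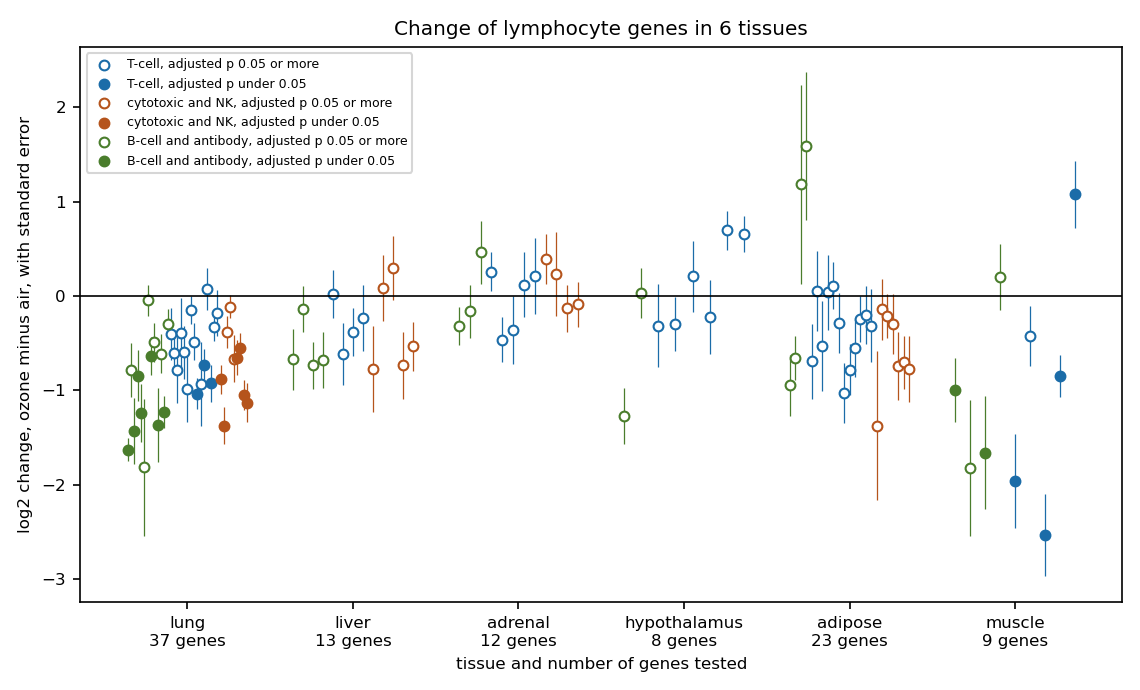
Each point is the log2 change of 1 tested gene, ozone minus air, in 1 of 6 tissues, on the log2(value + 1) scale, and bars are standard errors. Filled points passed an adjusted p of 0.05: 16 in lung, all below 0, and 6 in muscle, of which 5 are below 0.

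Outside the lung few members reached the minimum for testing. In liver 13 were tested and none passed, beside 4.72% of all liver genes that fell and 6.74% that rose (limma; 2 had an unadjusted p under 0.05, as did 23.3% of all, and edgeR and DESeq2 on the recovered reads also called 0). Of the 13, 10 had a negative change, and the median was -0.53. Ighm ranged from 220.2 to 471 in air (median 301) and from 142 to 386 in ozone (median 165). Its values in 5 ozone libraries were below the air range and that of ozone 19 was well above them, and the change was -0.73 ± 0.25 (adjusted p = 0.0777). Ighm passed when ozone 19 was left out, and Cd8a, at -0.62 ± 0.33 with all libraries (adjusted p = 0.289), passed when air 1 was left out.

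In adipose tissue 23 members were tested and none passed, beside 3.45% of all adipose genes that fell and 3.87% that rose (limma; 6 had an unadjusted p under 0.05, as did 21.7% of all, edgeR called 0 and DESeq2 called Cd22 alone). The change was negative for 18 of 23, with a median of -0.32. Cd8a held 29.2, 22.9, 19.6, 37.4 and 25.4 normalised reads in the 5 air libraries and 18.1, 10.2, 19.1, 8.33 and 9.79 in the 5 ozone libraries. The groups did not overlap, and the change of -1.02 ± 0.32 missed the threshold (adjusted p = 0.0753). Ighm held 555, 47.6, 83.3, 145 and 126 in air and 67.4, 150, 134, 3038 and 601 in ozone. Ozone 22 and ozone 23 were far above the other ozone libraries, Jchain was highest in the same libraries at 959 and 229, and neither gene passed (adjusted p = 0.568 and 0.272). Cd22 passed when air 12 was left out and Il2rb when ozone 23 was left out.

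In hypothalamus 8 members were tested and none passed, beside 0.624% of all genes that fell and 0.789% that rose (limma; 3 had an unadjusted p under 0.05, as did 14.8% of all, edgeR called 0 and DESeq2 called Ighm alone). Lck ranged from 13.2 to 26.1 normalised reads in air (median 18.8) and from 24.1 to 41.2 in ozone (median 31.6). In 4 ozone libraries it was above all air libraries, and the change was 0.70 ± 0.21 (adjusted p = 0.132). Zap70 ranged from 11.6 to 16.5 in air and from 17.1 to 26.0 in ozone. Its groups did not overlap, and the change was 0.66 ± 0.19 (adjusted p = 0.12). The CD3 chain Cd3e held at most 8.05 normalised reads in these libraries, Cd3d at most 4.13 and Cd3g at most 3.78. Ighm went the other way, from 11.6 to 35.2 in air and from 5.05 to 12.3 in ozone, at -1.27 ± 0.30 (adjusted p = 0.0543).

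In adrenal gland 12 members were tested and none passed, beside 9.38% of all genes that fell and 9.23% that rose (limma; 0 had an unadjusted p under 0.05, beside 32.0% of all, and edgeR and DESeq2 called 0). Of the changes 6 were negative and 6 positive, with a median of 0.02. Zap70, at 8.37 to 49.6 in air and 17.7 to 46.9 in ozone, had a change of 0.21 ± 0.40 (adjusted p = 0.773).

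In muscle 9 members were tested, of which 5 fell and Tcf7 rose, in a tissue where 22.1% of all genes fell and 21.6% rose. Cd6 held 43.5, 18.2, 60.8, 28.3, 34.5 and 20.5 normalised reads in the 6 air libraries and 5.59, 7.08, 3.24, 11.0 and 1.07 in the 5 ozone libraries. The groups did not overlap, and Cd6 fell by 2.53 (SE 0.44, adjusted p = 0.000637). Cd28 ranged from 9.08 to 44.4 in air and held 4.47, 9.10, 1.08, 8.83 and 3.21 in ozone, and it fell by 1.96 (SE 0.50, adjusted p = 0.0068). Il2rb ranged from 19.6 to 29.9 in air and from 11.0 to 15.6 in ozone with no overlap, and it fell by 0.85 (SE 0.22, adjusted p = 0.00703).

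Cd22 (-0.999, adjusted p = 0.0282) and Jchain (-1.66, adjusted p = 0.0359) also fell in muscle, and Tcf7 rose by 1.08 (SE 0.36, adjusted p = 0.025) from 3.73 to 10.7 in air to 6.70, 18.2, 24.9, 16.6 and 20.3 in ozone. Only ozone 13 was inside the air range of Tcf7. Defining lymphocyte genes were at or near 0 in this tissue: Cd3d, Cd3e and Cd3g held at most 2.83 normalised reads in any muscle library and Cd79a, Cd79b and Ms4a1 at most 2.21. Without air 11, 3 of the 9 passed: Cd6, Cd28 and Il2rb. With a minimum mean of 50, 1 member was left to test in muscle and it did not pass.

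Markers of other cells also fell in muscle, and their counts stand beside 22.1% of all muscle genes that fell and 21.6% that rose. Of 7 tested pan-leukocyte markers 6 fell and 0 rose, and their summed level was 48.6 to 87.0 CPM in air and 17.2 to 30.5 in ozone. Of 6 tested mast cell and eosinophil markers 5 fell (Cpa3, Cma1, Ms4a2, Kit and Siglec5), with sums of 36.5 to 75.8 and 7.42 to 24.3. Of 5 endothelial markers Kdr, Tie1, Emcn and Vwf fell, with sums of 270.2 to 442 and 174 to 243. Of 2 tested neutrophil markers Ncf1 fell, with sums of 17.2 to 45.3 and 3.41 to 13.1. None of these 4 sums overlapped between air and ozone. Of 9 macrophage and monocyte markers Csf1r, Adgre1 and Ctss fell, with sums of 134 to 291 and 75.4 to 183 that overlapped. Of 16 tested further T-cell genes 10 fell and Foxp3 and Prkcq rose, with sums of 218.5 to 312.3 and 193.1 to 214.9 without overlap. Of 16 further B-cell and plasma cell genes 10 fell and Cxcr5, Bcl6 and Pik3ap1 rose. Their sums were higher in ozone, at 205.9 to 323.3 and 289.2 to 403.9, and overlapped. Of 5 further NK and cytotoxic genes Cd244 fell and Cst7 rose. The members together took 16.9 to 41.0 CPM in air and 10.2 to 21.3 in ozone, which overlapped. Without Cd4, which rat macrophages also carry, they took 9.49 to 23.2 in air and 5.73 to 8.11 in ozone, with no overlap. The part of the other cells in the muscle result was not tested.

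Whether the lung changes differed from those of another tissue was tested directly. Against muscle, 2 of 9 members differed, beside 11.5% of all genes with a lower and 17.0% with a higher lung change. Tcf7 had the lower lung change, by -1.40 ± 0.36 (adjusted p = 0.00504), and Cd6 the higher one, by 2.05 ± 0.48 (adjusted p = 0.00272). Against hypothalamus, 1 of 8 differed, beside 1.47% lower and 2.27% higher: Lck, whose lung change was lower by -1.62 ± 0.28 (adjusted p = 0.000853). Zap70 passed there as well when lung ozone 19 was left out.

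Against adrenal gland, 1 of 12 differed, beside 5.65% lower and 7.70% higher. It was Prf1, whose lung change was lower by -0.96 ± 0.27 (adjusted p = 0.0177), and in adrenal gland Prf1 held 23.4, 25.9, 32.3, 14.7 and 21.9 in air and from 14.3 to 27.2 in ozone. It did not pass without lung air 1 and air 2. Cd22 passed as well when lung air 7 or ozone 19 was left out, and Gzmk when adrenal air 8 or ozone 17 was left out. Against liver, 0 of 13 differed with limma (3.36% of all genes lower and 3.49% higher, 2 members with an unadjusted p under 0.05 beside 17.3% of all, DESeq2 called Cd22), and against adipose tissue 0 of 23 (1.40% lower and 2.66% higher, 3 members with an unadjusted p under 0.05 beside 16.1% of all, DESeq2 called Jchain). In the liver test Cd22 passed without lung ozone 19 and Bank1 without liver air 1. The 5 tests share the lung libraries.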

How the data were processed

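Messenger RNA was sequenced on an Illumina NextSeq 500 from total RNA extracted with Qiagen kits (lung, liver, muscle, adipose tissue) or a Zymo kit (hypothalamus, adrenal gland), per the labels' protocols. Per the submitters' processing notes the tools included Partek and DESeq2, on build rn6. How reads were aligned and counted, whether strand was used and which annotation served is not given in the sources used here. Paralogs and overlapping genes are therefore uncertain. The authors deposited 1 table per tissue whose values are a signal: read counts of a gene over a size factor. The values themselves show this, since 100% of them were whole multiples of 1 step per library (tolerance 0.01), which gave back the reads. In 6 libraries the step was close to 1 (1.0046 to 1.0114), where 100% of the values were whole with the step and at most 7.4% without it. Of 70 labelled libraries 68 had a column, and 2 were not analysed here (adrenal air 7, muscle ozone 17). Each table had 19465 entries, and 24 named by a date were left out.

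Ozone was compared with air by limma 3.58.1 (R 4.3.3) on log2(value + 1), for genes whose mean in the tissue reached 10, with a mean-variance trend and robust moderation and each tissue alone. P-values are Benjamini-Hochberg adjusted over all tested genes of the tissue, the threshold was 0.05, and a gene past it is said to have risen or fallen. Fold changes on this scale understate changes of low genes. Lung was compared with each other tissue by the tissue-by-exposure term of a fit over 4 groups. The fits were tested on simulated data. Alternatives were pseudocounts of 0.5 and 5, no minimum or a minimum mean of 50, TMM, edgeR 4.0.16, DESeq2 1.42.0, array weights, each library left out, lung air 1 and air 2 left out, and the library number as a block. No 2 libraries of a group agreed within counting noise (lowest chi-square per degree of freedom 9.26). Same-numbered libraries of lung and another tissue did not all deviate together (lowest correlation -0.46 to -0.18, highest 0.14 to 0.44). Against hypothalamus the median was 0.15, and 4 of 7 were over 0.1. The labels do not say that a number marks 1 rat.

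The members and the gene lists were chosen with earlier results of these data known. All members are named, with up to 3 genes of the lowest p from each other list and every count of 5 or fewer by name. Promoters are from RefSeq.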

Additional observations from a re-analysis of the deposited data

Results flagged for a closer look

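Each tested member was looked at for a single library far from the rest of its group, over 204 groups of 5 or 6 libraries, and 15 stood out, where chance gives about 1 in 20. In lung these were Cd247 (141), Nkg7 (201) and Ncr1 (100.9) in ozone 19, each above the other ozone libraries, Fcrla (89.0) in ozone 13, Lck (179) in air 1, and Gzmb (116) in air 10, which was below the others. In liver they were Bank1 (68.3) in air 1 and Ighm (386) in ozone 19. In adrenal gland they were Nkg7 (21.9) in air 11 and Jchain (56.5) in air 2. In adipose tissue they were Tcf7 (56.5) in air 9, Ncr1 (42.6) and Ighm (555) in air 2, and Ighm (3038) and Jchain (959) in ozone 22.

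For 4 of 65 member tests the lung change differed from that of another tissue. The share of all genes with a lower and a higher lung change was 3.36% and 3.49% against liver. It was 5.65% and 7.7% against adrenal gland, and 1.47% and 2.27% against hypothalamus. Against adipose tissue it was 1.4% and 2.66%, and against muscle 11.5% and 17.0%. The lung change minus the other was -0.96 for Prf1 against adrenal gland, -1.62 for Lck against hypothalamus, 2.05 for Cd6 against muscle and -1.40 for Tcf7 against muscle, on the log2 scale.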

How the results depend on the processing

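Counts below are members past an adjusted p of 0.05. In lung 16 fell with all libraries. Other pseudocounts, minimum means, TMM, edgeR, DESeq2 and array weights gave 13 to 20, all lower after ozone. Leaving out 1 lung library gave 12 to 18, and leaving out air 1 and air 2 together gave 9. The Fcrla change turned positive with array weights (0.0213) and without air 1 and air 2 (0.0605), and over single libraries left out it ran from -0.13 (without ozone 13) to 0.0604 (without air 1). Without ozone 16 it was 0.0084. That of Lat ran from -0.0778 (without air 9) to 0.18 (without air 10), and was -0.01 without ozone 20. TMM moved the median of all genes by 0.014 or less in size.

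With single libraries left out, the counts ran from 0 to 1 in liver and in adipose tissue and from 3 to 7 in muscle, and were 0 in adrenal gland and hypothalamus. Array weights gave 2 in liver (Cd8a and Ighm), 3 in hypothalamus (Ighm, Lck and Zap70) and 2 in adipose tissue (Bank1 and Cd8a). DESeq2 gave 1 in hypothalamus and 1 in adipose tissue, and no minimum mean gave 1 in adrenal gland (Lat, higher). A minimum mean of 50 gave 0 in muscle, where 1 member was left to test.

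For the lung change against another tissue's, single libraries left out gave 0 to 1 against liver, 1 to 2 against adrenal gland, 1 to 2 against hypothalamus, 0 against adipose tissue and 2 to 3 against muscle. A minimum mean of 50 gave 0 against adrenal gland, hypothalamus and muscle, with 3, 1 and 1 members left to test. A pseudocount of 5 gave 1 against liver and 1 against adipose tissue. DESeq2 gave 1, 3 and 1 against liver, adrenal gland and adipose tissue. Array weights gave 1, 2 and 4 against liver, adrenal gland and muscle. No minimum mean gave 2 against adrenal gland, and leaving out lung air 1 and air 2 gave 0 there. With the replicate block on the library number the counts were 0, 1, 1, 0 and 2 against liver, adrenal gland, hypothalamus, adipose tissue and muscle, the same as without it. Except where fewer members were tested, the cause was not tested. Outside lung 8 to 23 members reached the minimum mean, and the others were not tested there.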

Other observations

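Further immune markers were read in lung, and their counts stand beside 8.18% of all lung genes that fell and 9.51% that rose. Of 5 tested dendritic cell markers Clec10a, a lectin of conventional dendritic cells and macrophages, rose by 1.15 (adjusted p = 0.000139), and Zbtb46, a dendritic cell factor, fell by 0.60 (adjusted p = 0.00576). Of 7 mast cell and eosinophil markers Siglec5 fell by 0.61 (adjusted p = 0.0148). Of 3 platelet markers Itga2b rose by 0.76 (adjusted p = 0.0136), with values of 63.8 to 123 in air and 92.8 to 180.2 in ozone.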
